A study of Mus musculus with 8 samples.

Results

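The genes that decide whether a cell leaves G1 phase were followed in cultured 4T1 cells, which come from a mouse mammary carcinoma, under a Wnt stimulus with or without a demethylating drug. A list of 10 symbols was taken, namely the D cyclins Ccnd1, Ccnd2 and Ccnd3, the E cyclins Ccne1 and Ccne2, the Ink4 inhibitors Cdkn2a, Cdkn2b, Cdkn2c and Cdkn2d, and Cdkn1b, which encodes p27. Of these, 8 were measured among the 23606 genes of the normalized count table, and all 8 passed the minimum mean of 10 normalized counts that left 15746 genes for testing. Cdkn2a and Cdkn2b were not analysed here. Polyadenylated RNA was sequenced from 4 Ctrl libraries (replicates 1 to 4), in which cells of the line received SKL2001, an agonist of Wnt and β-catenin signalling, overnight, and from 4 Hypo libraries (replicates 2 to 5), in which cells of the same line received SKL2001 together with decitabine, a nucleoside analogue that blocks DNA methyltransferases. SKL2001 was therefore shared by both groups, and no cells without it were analysed here. The cells are a single established line grown in culture. Because RNA was taken in bulk, fewer cells in a phase and less RNA per cell cannot be told apart.

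Progression through G1 is driven by D cyclins bound to Cdk4 or Cdk6, which phosphorylate the retinoblastoma family and release E2F factors. E2F then raises the E cyclins, which activate Cdk2 and take the cell into S phase. Ink4 proteins bind Cdk4 and Cdk6 and keep the D cyclins off them, whereas p27 and its relatives p21 and p57 bind whole cyclin-Cdk complexes. D cyclin genes, Ccnd1 above all, are known targets of growth factor and Wnt signalling. Of the Ink4 genes, Cdkn2a and Cdkn2b, which were not analysed here, are often silenced in tumours through DNA methylation.

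Between 27486245 and 39388394 reads fell in genes of a library. The 6 epithelial marker genes (Epcam, Krt8, Krt18, Krt7, Cdh1, Cldn4) were all present in every library, with a summed normalized count of 131547 to 148053 in Ctrl and 121888 to 138198 in Hypo. Within this sum, Krt7 went from a mean of 36102 in Ctrl to 24684 in Hypo, and Epcam from 10582 to 13059. The groups did not overlap for Krt7 and Epcam, and they overlapped for the other epithelial markers. Markers of other cell types were far lower and did not stay level either. Immune markers (3 of 6 with values) summed to 113 to 126 in Ctrl and 209 to 373 in Hypo, endothelial markers (5 of 5) to 33.5 to 63.4 and 134 to 174, and fibroblast markers (4 of 5, nearly all of it Pdgfra) to 1795 to 2184 and 2184 to 2477. No defining marker with values stood at 0 in all libraries, although Dcn and Thy1 were at 0 in 3 of 4 Ctrl libraries. The part of these markers in the results was not tested. Ctrl replicate 3 stood apart from the other libraries in its S phase genes, as described with the E cyclins.

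Of the 8 measured genes, 5 changed in hypomethylated cells. Ccnd1, Ccnd2, Cdkn1b and Cdkn2c fell, Cdkn2d rose, and Ccnd3, Ccne1 and Ccne2 did not pass the test, which was limma's moderated test on the deposited variance-stabilized values (a log2-like scale) with Benjamini-Hochberg adjustment over all tested genes and a threshold of 0.05. Over all tested genes 22.8% were called, 14.1% higher in Hypo and 8.75% lower, that is 2219 and 1378 genes (1818 and 1962 after quantile normalization, 1917 and 2261 once trends with GC and length were taken out). The normalized counts of the groups did not overlap for the same 5 measured genes, against 25.7% of all tested genes. The median difference of the 8 genes was -0.20, against 0.00 over all tested genes. No called difference was large, and the biggest in size was the -0.34 of Ccnd2.

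**Figure D1:**
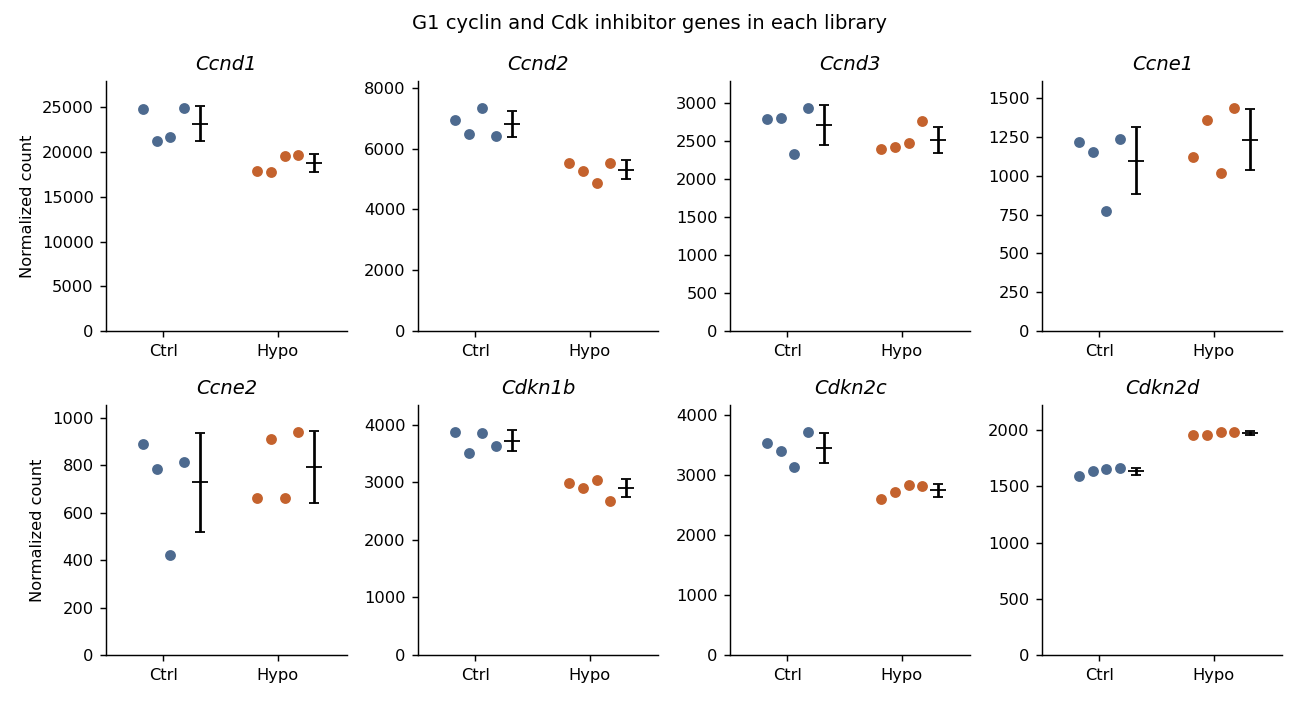
Normalized counts (vertical axes, from 0) of the 8 measured G1 cyclin and Cdk inhibitor genes in each of the 4 Ctrl and 4 Hypo libraries. Points are libraries and bars give the group mean with its SD. Ccnd1, Ccnd2, Cdkn1b and Cdkn2c lie lower in all Hypo libraries, Cdkn2d lies higher in all, and Ccnd3, Ccne1 and Ccne2 overlap.

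Promoter windows for the inhibitor genes that changed are printed because decitabine lowers methylation at CG dinucleotides and because the inhibitors moved in opposite directions. The windows come from RefSeq (build GRCm38.p6), run 5′ to 3′ on the gene's strand from 250 bases before to 50 bases after a start, and carry every CG in capitals. Windows were at hand for Cdkn1b, Cdkn2c, Cdkn2d, Ccne1 and Ccnd3 of the measured genes. Methylation itself was not measured in these libraries.
Cdkn1b (chr6:134920151-134920450, plus strand): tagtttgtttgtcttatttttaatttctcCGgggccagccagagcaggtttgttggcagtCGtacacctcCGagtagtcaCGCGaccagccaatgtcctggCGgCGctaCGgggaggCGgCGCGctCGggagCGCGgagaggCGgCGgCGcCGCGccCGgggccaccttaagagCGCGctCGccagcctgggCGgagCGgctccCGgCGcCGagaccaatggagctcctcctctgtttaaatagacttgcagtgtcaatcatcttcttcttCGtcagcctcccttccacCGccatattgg
Cdkn2d (chr9:21291160-21291459, minus strand): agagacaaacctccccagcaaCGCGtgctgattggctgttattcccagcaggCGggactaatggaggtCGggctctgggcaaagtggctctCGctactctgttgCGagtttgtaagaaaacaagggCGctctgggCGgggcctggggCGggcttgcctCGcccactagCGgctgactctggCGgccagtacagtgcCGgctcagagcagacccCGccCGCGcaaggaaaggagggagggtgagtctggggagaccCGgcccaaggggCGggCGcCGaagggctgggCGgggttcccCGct
Cdkn2c, downstream start (chr4:109665323-109665622, minus strand): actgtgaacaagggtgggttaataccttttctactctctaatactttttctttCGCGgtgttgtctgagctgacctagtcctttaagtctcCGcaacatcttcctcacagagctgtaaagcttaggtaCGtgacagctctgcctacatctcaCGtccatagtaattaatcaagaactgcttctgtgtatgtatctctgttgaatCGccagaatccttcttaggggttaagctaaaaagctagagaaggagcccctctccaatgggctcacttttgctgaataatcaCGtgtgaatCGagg

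The CG content of the windows was counted. The Cdkn1b window held 30 CG dinucleotides, a number reached by 11.7% of the 32851 promoter windows of the table, whose median was 7. The Cdkn2d window held 22 (reached by 23.1%). For Cdkn2c, the window at the upstream start held 33 (reached by 8.56%) and the one at the downstream start printed above held 8 (reached by 48.7%), and counts per gene cannot tell the starts apart. Among the genes that were not called, the Ccne1 window held 41 (reached by 3.46%) and the 2 Ccnd3 windows held 15 (reached by 34.6%) and 28 (reached by 14.2%). With no window for Ccnd1 or Ccnd2, these numbers do not decide whether CG content goes with the direction.

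Of the 5 searched motifs, 3 were found in these windows. Both strands were searched for E2F letters (TTTCGCG and its variants with TTTGGCG letters, with TTTCCCG letters or with TTTGCCG letters, in 6.7% of all windows), Tcf letters (CTTTGAA or CTTTGAT, 8.7%), the Myc E-box (CACGTG, 7.2%), the Creb letters (TGACGTCA, 1.8%) and the Sp box (GGGCGG, 35.7%). Matches of different motifs did not overlap in these windows. Only the downstream Cdkn2c window, of the 7 windows of measured genes, held an E2F match, at position -200 from the start, and it also held an E-box at position 35. No Tcf or Creb match occurred in any of the 7. Sp boxes occurred in the other 6 windows, with 1 in Cdkn1b at position -61 and 5 in Cdkn2d. A match is only a stretch of letters, and no binding was measured here.

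D cyclins, the partners of Cdk4 and Cdk6, fell in hypomethylated cells through Ccnd1 and Ccnd2. Ccnd1, which encodes cyclin D1 (ENSMUSG00000070348, GRCm38 chr7:144929931-144939925, minus strand), had normalized counts of 24776, 21256, 21654 and 24938 in Ctrl and of 17914, 17811, 19565 and 19641 in Hypo, where libraries are given from here on in the order of their replicate numbers. Every Hypo library lay below every Ctrl library. The mean was 1.24-fold lower in Hypo (23156 ± 1972 in Ctrl and 18733 ± 1006 in Hypo, SD, n = 4 each), with a difference of -0.30 ± 0.06 (SE, limma adjusted p = 0.00525). The exons of Ccnd1 share 1100 bases with LTO1 on the opposite strand, and LTO1 was lower in Hypo as well (714 ± 32.1 against 569 ± 24.5, limma adjusted p = 0.00423). Its level is a small part of that of Ccnd1, but no source used here tells whether counting used the strand.

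Ccnd2, which encodes cyclin D2 (ENSMUSG00000000184, GRCm38 chr6:127125162-127152193, minus strand), fell by a similar amount. Its normalized counts were 6931, 6490, 7339 and 6426 in Ctrl and 5514, 5280, 4865 and 5542 in Hypo. The lowest Ctrl library stood well above the highest Hypo library. The mean was 1.28-fold lower (6797 ± 426 against 5300 ± 313, SD, n = 4 each), and the difference was -0.34 ± 0.06 (SE, limma adjusted p = 0.000961). Exons of Gm43126 and 9330179D12Rik lie across from those of Ccnd2, both with very low counts (16.9 and 2.34 on average in Ctrl).

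Ccnd3, which encodes cyclin D3 (ENSMUSG00000034165, GRCm38 chr17:47505051-47599691, plus strand), did not pass the test with all libraries. Its normalized counts were 2788, 2802, 2333 and 2940 in Ctrl and 2393, 2422, 2480 and 2772 in Hypo, so that Ctrl replicate 3 was the lowest of all 8 and the groups overlapped. The difference was -0.10 (95% interval -0.25 to 0.05, limma adjusted p = 0.347). Without Ctrl replicate 3 it was -0.16 and passed the test (limma adjusted p = 0.0341), and with array weights, which give less weight to libraries that deviate, it was -0.17 (limma adjusted p = 0.0137). Bysl, which shares 361 exon bases with Ccnd3 on the opposite strand, did not pass the test (1981 against 1940, limma adjusted p = 0.817). The pseudogene Ccnd3-ps stood at only 1.56 and 0.748.

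Cyclin D1 transcripts made up most of the D cyclin pool in both groups. Per kilobase of exon, Ccnd1 held 82.6 ± 1.18% of the summed D cyclin level in Ctrl and 82.4 ± 1.02% in Hypo (SD, n = 4 each), Ccnd2 held 12.2 ± 1.28% and 11.7 ± 0.92%, and Ccnd3 held 5.21 ± 0.45% and 5.94 ± 0.22%. The summed level per kilobase was 5949 ± 425 in Ctrl and 4828 ± 222 in Hypo. Exon length was taken over all annotated exons of a gene, and the SDs do not cover which transcripts were in use. The log2 ratio of Ccnd1 to Ccnd2 within a library differed by 0.06 between the groups (exact permutation p = 0.629, two-sided, adjusted 0.771 over 5 pairs of genes), less than its SD within either group. The log2 ratios to Ccnd3 were lower in Hypo by -0.20 for Ccnd1 and by -0.25 for Ccnd2 (exact permutation p = 0.0571, adjusted 0.0952, for each), and these did not pass the adjustment.

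The kinases that D cyclins activate did not move alike. Cdk6 had normalized counts of 4013, 3614, 3728 and 4111 in Ctrl and of 2642, 2750, 3021 and 2977 in Hypo. It was thus 1.36-fold lower in Hypo without overlap of the groups (limma adjusted p = 0.000269). Cdk4 gave 8773 ± 342 and 9179 ± 285 and did not pass the test (difference 0.06, limma adjusted p = 0.345). Cdk4 was also the more abundant per kilobase of exon, at 2700 against 276 for Cdk6 in Ctrl.

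**Figure D2:**
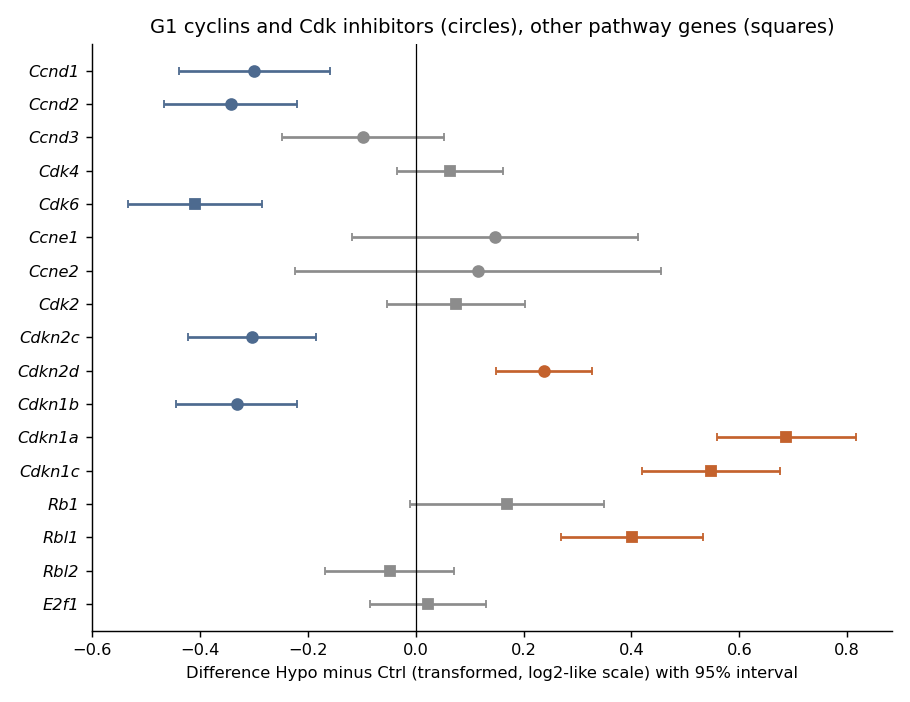
Difference between Hypo and Ctrl on the transformed, log2-like scale (horizontal axis) with its 95% interval, for the 8 measured G1 cyclins and Cdk inhibitors (circles) and for 9 other genes of the pathway (squares). Blue marks genes called lower, orange genes called higher and grey genes not called. Ccnd1, Ccnd2, Cdk6, Cdkn2c and Cdkn1b lie to the left of 0, and Cdkn2d, Cdkn1a, Cdkn1c and Rbl1 to the right. Cdkn1c passed the minimum for testing only through its level in Hypo and is shown as a description.

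E cyclins, the activators of Cdk2, did not pass the test, and their spread between libraries was the widest of the 8 genes. Ccne1, which encodes cyclin E1 (ENSMUSG00000002068, GRCm38 chr7:38097984-38107534, minus strand), had normalized counts of 1217, 1153, 776 and 1234 in Ctrl and of 1121, 1356, 1016 and 1437 in Hypo. Ccne2, which encodes cyclin E2 (ENSMUSG00000028212, GRCm38 chr4:11191351-11204779, plus strand), had 890, 785, 420 and 814 in Ctrl and 662, 909, 661 and 942 in Hypo. In both genes Ctrl replicate 3 was the lowest library and Hypo replicate 5 the highest. The coefficient of variation was 19.7% in Ctrl and 16.0% in Hypo for Ccne1, and 28.8% and 19.3% for Ccne2, against 1.91% and 0.826% for Cdkn2d.

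The intervals of the E cyclin differences were correspondingly wide. The difference was 0.15 for Ccne1 (95% interval -0.12 to 0.41, limma adjusted p = 0.427) and 0.12 for Ccne2 (95% interval -0.22 to 0.45, limma adjusted p = 0.641). Without Ctrl replicate 3 these values were 0.02 and -0.06, and neither passed the test. Ints8 overlaps 609 exon bases of Ccne2 on the opposite strand and stood at 2726 and 2731. The log2 ratio of Ccne1 to Ccne2 differed by 0.02 (exact permutation p = 0.771, two-sided, adjusted 0.771), and Ccne1 held 66.9 ± 2.80% and 67.2 ± 1.23% of the summed E cyclin level per kilobase of exon.

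The low E cyclin values of Ctrl replicate 3 came with low values of the wider set of E2F targets that are read at the passage from G1 to S. The mean transformed value over 24 such genes was 11.78 in Ctrl replicate 3, against 12.09, 11.97 and 12.08 in Ctrl replicates 1, 2 and 4 and 11.99 to 12.10 in Hypo. Of the 24 genes, 2 were higher in Hypo, 1 was lower and 21 were not called, where all tested genes gave 14.1% higher and 8.75% lower. Cdc45, part of the replicative helicase, was 1.33-fold higher (limma adjusted p = 0.000287), and Ung, which removes uracil from DNA, was 1.38-fold lower (limma adjusted p = 0.00817). The median difference of the list was 0.06. After quantile normalization 7 of the 24 were called higher and 1 lower (1818 and 1962 of all 15746 tested genes). Without Ctrl replicate 3 the median was 0.01, with 3 called higher and 3 lower (2743 and 2095 of all tested genes). Cdc45 and Ung kept their calls in that fit. Cdk2, the kinase partner of the E cyclins, stood at 1536 ± 125 and 1628 ± 77.0 (limma adjusted p = 0.406), and E2f1 at 2071 ± 112 and 2106 ± 75.1 (limma adjusted p = 0.790). Without Ctrl replicate 3 the differences of Cdk2 and E2f1 were 0.02 and -0.0039, and neither was called.

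**Figure D3:**
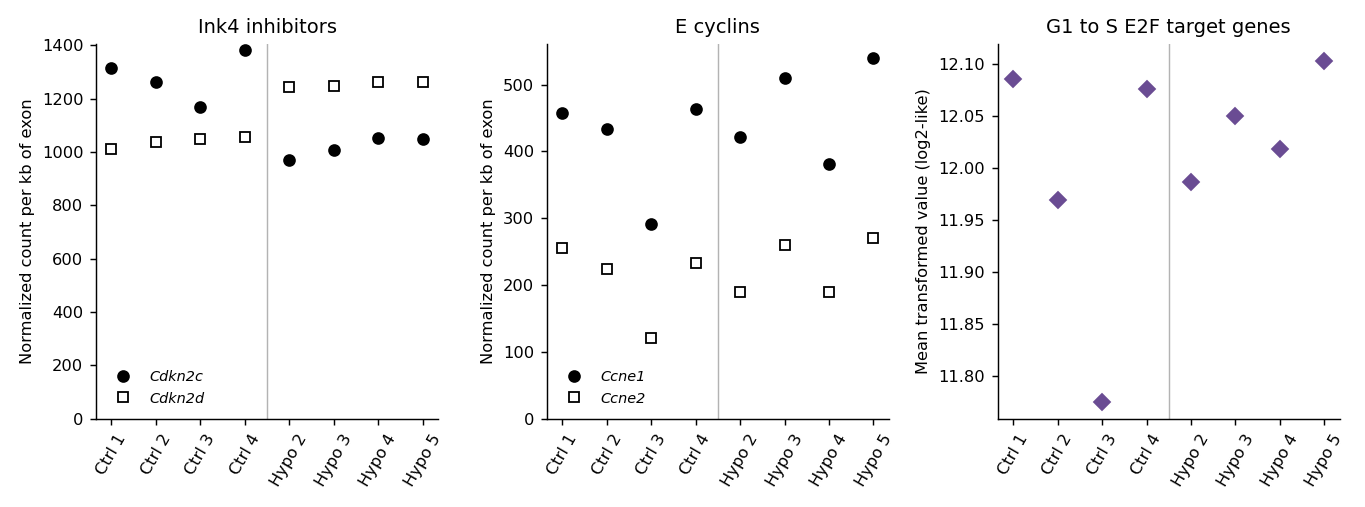
Level in each library (horizontal axis) of the Ink4 inhibitors Cdkn2c and Cdkn2d and of the E cyclins Ccne1 and Ccne2, as normalized count per kilobase of exon from 0, and of 24 G1 to S E2F target genes, as their mean transformed value on an axis that does not start at 0. Cdkn2c lies above Cdkn2d in every Ctrl library and below it in every Hypo library, and Ctrl replicate 3 has the lowest E cyclins and the lowest E2F target mean, 11.78.

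The measured Ink4 inhibitors, which act on the same kinases, went in opposite directions. Cdkn2c, which encodes p18 (ENSMUSG00000028551, GRCm38 chr4:109660876-109667189, minus strand), had normalized counts of 3532, 3394, 3134 and 3717 in Ctrl and of 2603, 2707, 2831 and 2811 in Hypo. It was 1.26-fold lower in Hypo without overlap (3444 ± 245 against 2738 ± 105, SD, n = 4 each), a difference of -0.30 ± 0.05 (SE, limma adjusted p = 0.00172).

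Cdkn2d, which encodes the Ink4 protein p19 (ENSMUSG00000096472, GRCm38 chr9:21288410-21291407, minus strand), was the measured gene of the list that rose. Its normalized counts were 1591, 1634, 1651 and 1663 in Ctrl and 1956, 1961, 1985 and 1988 in Hypo. Libraries of a group hardly differed, while the groups were clearly apart. The mean was 1.21-fold higher (1635 ± 31.3 against 1973 ± 16.3, SD, n = 4 each), and the difference was 0.24 ± 0.04 (SE, limma adjusted p = 0.00128).

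These opposite changes exchanged the order of the pair per kilobase of exon, though not by normalized count. Cdkn2c had the higher count in every library (3444 against 1635 on average in Ctrl, 2738 against 1973 in Hypo). The exchange thus rests on the exon lengths, and which transcripts were in use was not measured. Per kilobase of exon, Cdkn2c held 55.2 ± 1.88% of the summed Cdkn2c and Cdkn2d level in Ctrl (52.7% to 56.7%) and 44.8 ± 0.767% in Hypo (43.8% to 45.5%), so that Cdkn2c was the higher of the pair in all 4 Ctrl libraries and the lower in all 4 Hypo libraries. The summed level was 2321 ± 92.5 in Ctrl and 2272 ± 49.1 in Hypo, a gap smaller than the SD in Ctrl. The log2 ratio of Cdkn2c to Cdkn2d fell by 0.60 between the groups without overlap. Its exact permutation p was 0.0286, the smallest that the 70 relabelings of 4 against 4 libraries can give, and 0.0952 after adjustment over 5 pairs of genes, which does not pass.

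Cdkn1b, which encodes p27 (ENSMUSG00000003031, GRCm38 chr6:134920401-134925513, plus strand), fell. Its normalized counts were 3881, 3511, 3860 and 3628 in Ctrl and 2987, 2908, 3033 and 2678 in Hypo. All Hypo libraries were below all Ctrl libraries. The mean was 1.28-fold lower (3720 ± 180 against 2902 ± 157, SD, n = 4 each), with a difference of -0.33 ± 0.05 (SE, limma adjusted p = 0.000636), the smallest p of the 8 genes. Over the 8 libraries, the tested genes whose transformed values followed those of Cdkn1b most closely were C630043F03Rik (Pearson r = 0.996), Pter (r = 0.987) and Arhgap5 (r = 0.986), among 376 genes with r above 0.9. The libraries fall into 2 groups, and the shift between the groups enters each r.

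Of the relatives of p27, Cdkn1a was clearly higher. Cdkn1a, which encodes p21, a p53 target that binds cyclin-Cdk complexes, had normalized counts of 850, 934, 893 and 929 in Ctrl and of 1706, 1475, 1496 and 1743 in Hypo. It was 1.78-fold higher (difference 0.69, limma adjusted p = 6.37e-06). Cdkn1c, which encodes p57, went from 8.10 ± 2.64 to 54.6 ± 13.3, so that it passed the minimum only through its level in Hypo, and its values are given as a description. The phosphatase gene Cdkn3, the last of this short list, was not called (limma adjusted p = 0.301). Among genes of p27 and G1 cyclin turnover, 2 of 21 tested genes rose and none fell, lower shares than the 14.1% and 8.75% of all tested genes, and the median difference was -0.07 (with GC and length trends taken out, 1 rose and 4 fell). Fbxo4, an F-box gene, rose 1.22-fold (limma adjusted p = 0.0142) and Usp2, which encodes a deubiquitinase, rose 1.19-fold (limma adjusted p = 0.0197). Skp2, which encodes the F-box protein that marks p27 for destruction, was at 1797 ± 269 and 1685 ± 206 (limma adjusted p = 0.620).

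The level per kilobase of exon ordered the 8 genes in Ctrl as Ccnd1 (4917 ± 419), Cdkn2c (1282 ± 91.4), Cdkn2d (1039 ± 19.9), Cdkn1b (817 ± 39.6), Ccnd2 (722 ± 45.2), Ccne1 (411 ± 81.0), Ccnd3 (309 ± 30.1) and Ccne2 (208 ± 59.95). In Hypo the order was Ccnd1 (3978 ± 214), Cdkn2d (1253 ± 10.4), Cdkn2c (1019 ± 39.2), Cdkn1b (637 ± 34.6), Ccnd2 (563 ± 33.3), Ccne1 (463 ± 73.9), Ccnd3 (287 ± 19.8) and Ccne2 (227 ± 43.8), where only the Ink4 pair had changed places. Neighbours whose means lay closer than their summed SDs were Ccne1 and Ccnd3 in Ctrl, Ccnd2 and Ccne1 in Hypo, and Ccnd3 and Ccne2 in Hypo. These SDs do not cover the exon lengths, on which the order rests. By mean normalized count the order in both groups was Ccnd1, Ccnd2, Cdkn1b, Cdkn2c, Ccnd3, Cdkn2d, Ccne1 and Ccne2. Ccnd2 thus stood above Cdkn2c (6797 against 3444 in Ctrl, 5300 against 2738 in Hypo). Ccnd3 stood above Ccne1 (2716 against 1095 in Ctrl, 2517 against 1233 in Hypo), and Cdkn2c above Cdkn2d. Some neighbours in this order had overlapping SDs, as Cdkn1b and Cdkn2c did (3720 ± 180 and 3444 ± 245 in Ctrl). By recovered reads, the gene with the fewest was Ccne2, with at least 464 reads in every library, and Ccnd1 had up to 29171.

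Downstream of the Cdks, Rbl1 was the called pocket protein gene. Of 13 pocket protein, E2F and DP genes, 2 rose, 2 fell and 9 were not called, where all tested genes gave 14.1% higher and 8.75% lower, with a median difference of -0.02. Rbl1, which encodes p107, rose 1.35-fold (2779 ± 214 to 3748 ± 225, limma adjusted p = 0.000508), and Tfdp2, a partner of E2F factors, rose 1.17-fold (limma adjusted p = 0.0373). E2f4 fell 1.22-fold (limma adjusted p = 0.00565), and E2f3 fell 1.22-fold (limma adjusted p = 0.0309) although its groups overlapped. Rb1 (1145 ± 171 against 1312 ± 107, limma adjusted p = 0.168) and Rbl2 (1602 ± 56.3 against 1543 ± 116, limma adjusted p = 0.575) were not called. In the DREAM and MuvB list, 2 of 6 tested genes rose and none fell, namely Foxm1, a driver of mitotic genes (1.37-fold, limma adjusted p = 0.000370), and Lin9 (1.17-fold, limma adjusted p = 0.0378).

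Among the Cdks and their activators, 2 of 14 rose, 4 fell and 8 were not called, where all tested genes gave 14.1% and 8.75% (4 rose and 4 fell after quantile normalization). Beside Cdk6, the genes that fell were Cdc37, a chaperone of Cdk4 and Cdk6 (1.17-fold, limma adjusted p = 0.00482), Cdc25c, which activates Cdk1 (1.20-fold, limma adjusted p = 0.0134), and Wee1, which inhibits it (1.14-fold, limma adjusted p = 0.0162). Cdk3 (1.41-fold, limma adjusted p = 0.00788) and Ccnh, the cyclin of the Cdk-activating kinase (1.13-fold, limma adjusted p = 0.0436), rose. The members that fell thus included both an activator and an inhibitor of Cdk1.

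Regulators known to act on these promoters were counted next. Of 19 regulators of D cyclin transcription, 7 rose and 2 fell, where all tested genes gave 14.1% and 8.75%. Myc, a growth factor and Wnt responsive gene, had normalized counts of 5759, 5497, 6540 and 6483 in Ctrl and of 3858, 3697, 4393 and 4496 in Hypo, so that it was 1.48-fold lower without overlap (limma adjusted p = 0.000251). Ets1 fell 1.16-fold (limma adjusted p = 0.00858). The risers with the smallest p were Tcf7, a transcription factor of the Wnt pathway (1.36-fold), Fos, a part of AP-1 (1.99-fold, from 91.7 ± 22.5), and Relb of the NF-κB family (1.79-fold), with limma adjusted p of 0.00140, 0.00155 and 0.00177. Of 22 tested regulators of Ink4 and p27 transcription, 3 rose and 1, again Ets1, fell, shares no higher than those of all tested genes. The risers were Ring1 of the Polycomb complex (1.37-fold, limma adjusted p = 0.0132, groups overlapping), Foxo3, an activator of Cdkn1b (1.31-fold, limma adjusted p = 0.00101), and Klf4, an activator of Cdkn1a (1.29-fold, limma adjusted p = 0.0124).

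**Figure D4:**
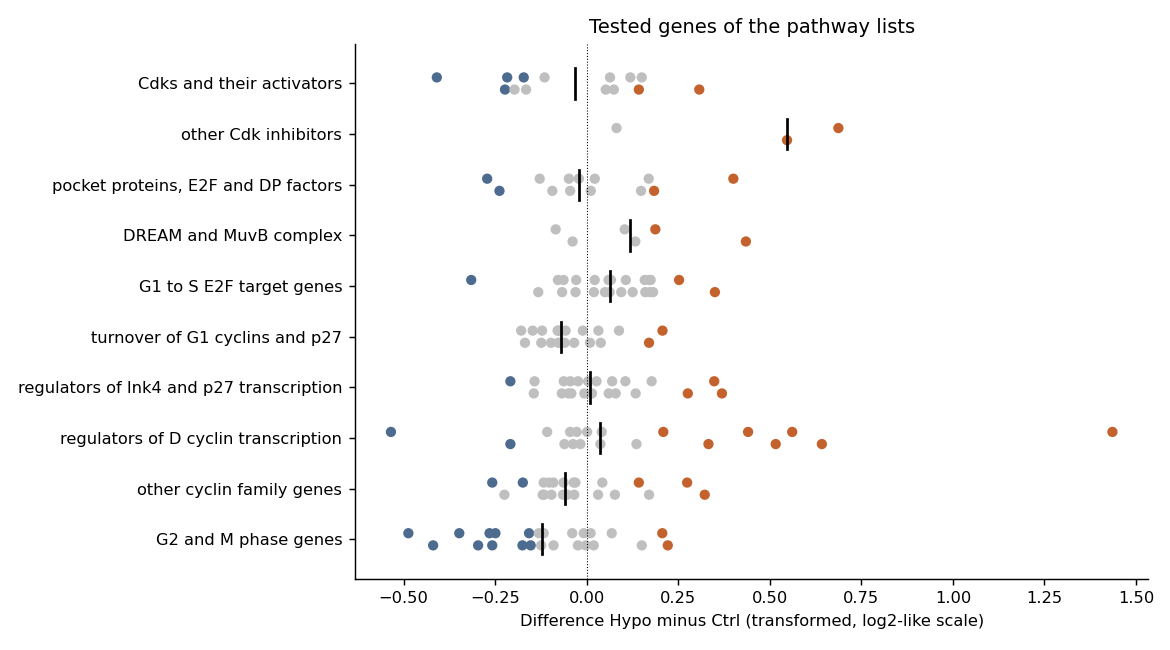
Difference between Hypo and Ctrl (horizontal axis, transformed, log2-like scale) of every tested gene of the 10 pathway lists (rows). Each point is a gene, coloured by its call, and the vertical tick is the median of the list. The list of G2 and M phase genes has 10 genes called lower and 2 called higher, with a median of -0.12. Of all tested genes, 8.75% were called lower and 14.1% higher.

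Beyond G1, the list with most genes called lower was that of G2 and M phase. In it 10 of 24 genes fell and 2 rose, where all tested genes gave 8.75% lower and 14.1% higher. Its median difference was -0.12. After quantile normalization 7 fell and 4 rose, with a median of -0.06 (1962 and 1818 of all 15746 tested genes fell and rose). Cdc20, the activator of the anaphase-promoting complex (1.43-fold), Plk1, a mitotic kinase (1.36-fold), and Bub1b, a checkpoint kinase (1.21-fold), fell with limma adjusted p of 0.000338, 0.000444 and 0.000527. Aurkb (1.18-fold, limma adjusted p = 0.00151) and Top2a (1.16-fold, limma adjusted p = 0.00568) rose. Of 22 tested genes of other cyclin families, 3 rose and 2 fell (2 and 4 after median centering), near the 14.1% and 8.75% of all tested genes. Ccno (2.17-fold, limma adjusted p = 0.00163, from a mean of only 32.5) and Cntd1 (1.56-fold, limma adjusted p = 0.00878) rose with Ccnh, and Ccnb1, the mitotic cyclin (1.21-fold, limma adjusted p = 0.00268), and Ccny (1.14-fold, limma adjusted p = 0.0145) fell. Over all 10 lists, 26 of 162 different tested genes rose (16.0%) and 20 fell (12.3%), and 28.4% were called in all, against 22.8% of all tested genes. The 26 include Cdkn1c, which passed the minimum only through its level in Hypo.

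Of the 36 called genes that the naming rule took from the lists, 27 passed the test with any single library left out. The other 9 each lost their call in at least 1 such fit. Leaving out Ctrl replicate 1 ended the calls of Fbxo4 (limma adjusted p = 0.0531) and Ccny (0.0563), and leaving out either Ctrl replicate 4 or Hypo replicate 2 ended that of Wee1 (up to 0.061). Usp2 (up to 0.0603) needed Ctrl replicates 1, 2 and 4 and Hypo replicate 2, and Tfdp2 (up to 0.112) needed Ctrl replicates 2 and 4 and Hypo replicates 2 and 3. The calls of E2f3, Lin9 and Ccnh were lost in most fits, E2f3 (up to 0.0976) unless Ctrl replicate 3 or Hypo replicate 5 was the library left out, Lin9 (up to 0.0981) unless it was Ctrl replicate 1 or Hypo replicate 2, and Ccnh (up to 0.125) unless it was Ctrl replicate 3. Without Ctrl replicate 3, 3 Cdks and activators rose and 6 fell, 2 turnover genes rose and 3 fell, 4 other cyclin genes rose and 5 fell, and 1 DREAM and MuvB gene rose. That fit also called more genes among all those tested (2743 higher and 2095 lower, against 2219 and 1378 with all libraries).

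The directions of the 5 called G1 cyclin and inhibitor genes held in 23 alternative settings. Across these settings the difference ran from -0.35 to -0.21 for Ccnd1, from -0.37 to -0.27 for Ccnd2, from -0.37 to -0.28 for Cdkn1b, from -0.36 to -0.26 for Cdkn2c and from 0.18 to 0.27 for Cdkn2d. The calls of Ccnd1, Ccnd2, Cdkn1b and Cdkn2c held in all 23, and that of Cdkn2d in 21, with limma adjusted p up to 0.12. Leaving out any single library ended none of the 5 calls. An edgeR test on the recovered reads with the deposited size factors gave log2 fold changes of -0.31, -0.36, -0.36, -0.33 and 0.27 for Ccnd1, Ccnd2, Cdkn1b, Cdkn2c and Cdkn2d and called the same 5.

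**Figure D5:**
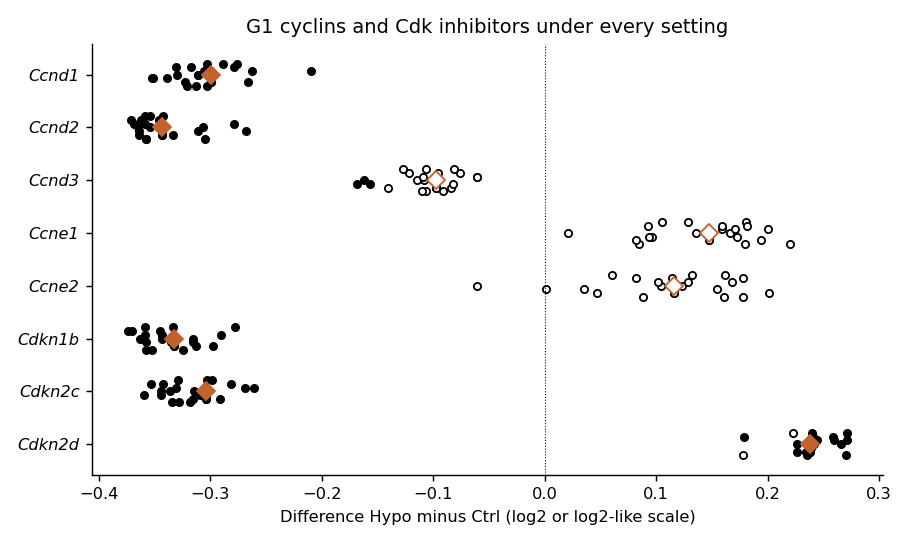
Difference between Hypo and Ctrl (horizontal axis, log2 or log2-like scale) of the 8 measured G1 cyclin and Cdk inhibitor genes (rows) in the reported fit and in 23 alternative settings. The points of Ccnd1, Ccnd2, Cdkn1b and Cdkn2c stay to the left of 0 and those of Cdkn2d to the right, whereas the points of Ccne2 lie on both sides, from -0.06 to 0.20.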

How the data were processed

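The 8 libraries were grouped by sample title. Per the study's methods, stranded polyadenylated libraries were aligned with STAR to GRCm38 and reads per gene were counted in its HTSeq mode. The authors deposited normalized counts, a signal obtained by dividing reads by a DESeq2 size factor, and variance-stabilized values on a log2-like scale. The deposited results table also holds the authors' mean expression, log2 fold change with its standard error, Wald statistic as a score, p-value and adjusted p-value, none of which was used. Within a tolerance of 0.01, 100% of the normalized values of each library were whole multiples of the worth of 1 read, so reads were recovered, and edgeR 4.0.16 with the deposited size factors called 3584 genes on them. Several reads may come from the same molecule, and depth therefore bounds counting error alone.

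Differences were fitted with limma 3.58.1 (trend, two-sided, group as the only term) in R 4.3.3 over the 15746 genes of both tables whose mean normalized count was at least 10, and genes were called below an adjusted p of 0.05. Folds are ratios of mean normalized counts. Differences of low genes are compressed on the transformed scale. Ratios of gene pairs (with 1 added to each count) were tested by exact permutation. Positions and exon lengths came from the GENCODE annotation of GRCm38. An exon length counts each exon base of a gene once over all its annotated transcripts. Levels per kilobase therefore depend on the annotation, and the transcripts in use were not measured. Settings, including DESeq2 1.42.0, were varied and the scripts were tested on simulated data. All measured genes of the list were named, together with every called gene of a pathway list with at most 6 calls, otherwise the 3 risers and the 3 fallers with the smallest p, and 10 chosen partners, except a gene that is counted with its list but not reported here. The genes and lists were chosen with earlier results of these data known. Separate cultures are not stated for libraries of the same group, and p-values therefore reflect only the spread among these libraries, part or all of which may be technical.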

Additional observations from a re-analysis of the deposited data

Results flagged for a closer look

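In each group of 4 libraries of the genes named above, the library farthest from the others was compared with the whole range of its group. Of 100 such groups 4 held a library far from the other 3, and chance alone marks about 1 group in 20. Ring1, a Polycomb gene, had a normalized count of 970.8 in Ctrl replicate 3, whereas the nearest other Ctrl library had 683.9. Relb, of the NF-κB family, had 723.6 in Ctrl replicate 3, with 458.2 in the nearest Ctrl library. Cntd1 had 67.5 in Ctrl replicate 4, below the 100.8 of the nearest Ctrl library. Top2a had 39476 in Hypo replicate 5, below the 42221 of the nearest Hypo library. None of the 8 measured G1 cyclin and Cdk inhibitor genes was marked in this way.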

How the results depend on the processing

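All differences below are Hypo minus Ctrl, and the cause of each shift was not tested. The calls of Ccnd1, Ccnd2, Cdkn1b and Cdkn2c, and the lack of a call of Ccne1 and Ccne2, were the same in all 23 alternatives, while Ccne2 changed sign in 1, Cdkn2d was called in 21 and Ccnd3 was not called in 20. Ccnd3 was called with array weights (-0.1689), without Ctrl replicate 3 (-0.1622) and without both Ctrl replicate 3 and Hypo replicate 4 (-0.1565, libraries that earlier results had set apart), which raised the count of called genes of the list from 5 to 6. With 1 library left out at a time, Ccnd3 ran from -0.1622 to -0.061 and Ccne2 from -0.061 (without Ctrl replicate 3, reversed) to 0.2014. The log2 ratio of Ccne1 to Ccne2 (main 0.0187) ran from -0.0385 (without Ctrl replicate 1) to 0.1058, with -0.0038 without Ctrl replicate 2 and -0.0208 without Hypo replicate 2, and that of Ccnd1 to Ccnd2 (main 0.0552) from -0.0134 (without Ctrl replicate 3) to 0.1184, with -0.0069 without Hypo replicate 4. Same-numbered libraries did not deviate together (correlations of -0.106, -0.214 and -0.170 for numbers 2, 3 and 4). Ctrl replicates 2, 3 and 4 instead matched Hypo replicates 3, 4 and 5 best, in that order. A block of such pairs was not fitted. The replicate block joined libraries of the same number, and with it Cdkn2d was not called (0.2231, adjusted p = 0.0799 with limma). Nor was Cdkn2d called with the block and GC and length trends removed (0.1782, adjusted p = 0.12 with limma). Both fits left 0 genes of the list called higher. The block left 1605 genes called overall (1283 higher, 322 lower) and 21 pathway genes (13 and 8), and the block with GC and length removal 1606 (1106 and 500) and 20 (8 and 12). Over all genes, 1350 were higher with a minimum mean of 50, 2261 lower with GC and length trends removed, and 5952 called (2673 lower) with array weights. Pathway genes called lower (main 20) were 31, 37 and 33 with GC and length removal, array weights and without both libraries. With 1 library left out, genes called lower (main 1378) ran from 852 (without Ctrl replicate 4) to 2095 (without Ctrl replicate 3), with 881 without Ctrl replicate 1 and 862 without Hypo replicate 3, and pathway genes called lower from 15 to 31 (without Ctrl replicate 3). The lowest read count of a G1 gene in a library was 464.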

Other observations

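Among the cyclin genes that could not be tested, Ccnb3, which encodes a B-type cyclin known for its role in meiosis, had normalized counts of 0, 0, 0 and 0.85 in Ctrl and of 12.7, 12.2, 5.51 and 16.7 in Hypo. It was singled out after its values were seen, and its mean lay under the minimum for testing. Egr1, an immediate early gene that was called higher (limma adjusted p = 0.00830), varied widely within Hypo, with normalized counts of 1142, 1302, 393 and 2702 in replicates 2 to 5 and of 276, 319, 230 and 346 in Ctrl replicates 1 to 4. It too was singled out after its values were seen.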
